A study of Arabidopsis thaliana with 24 samples.

Results

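RNA was counted in detached leaves of Arabidopsis thaliana (accession Columbia-0) that had been held with 3 hormone-pathway compounds and then given cordycepin, a drug that stops transcription. These 12 libraries, of 24 in the study, were chosen by their label as stimulus leaves. They cover 0, 15, 60 and 240 min after cordycepin, each with replicate numbers 2, 3 and 4, and the 4 libraries that share a number are called a series here. The study asked how fast RNA decays after a stimulus. By the submitters' description, plants grew on soil for 10 d in continuous light at 21 °C, and their leaves 1 and 2 were pooled, surface-sterilised and floated for 8 h in a buffer with salts, glucose and dimethyl sulfoxide. For stimulus leaves the buffer held bikinin (20 µM), 2,4-dichlorophenoxyacetic acid (2.5 µg/mL) and kinetin (0.5 µg/mL), and mock leaves, the other 12 libraries, had the same buffer without them. Cordycepin at 1 mM was added in both. The 0 min libraries are therefore leaves after 8 h of stimulus with no time in cordycepin, and every group shares detachment, sterilisation and shaking. All libraries are of wild-type leaves, with no mutant in either arm.

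Bikinin inhibits the kinases that restrain brassinosteroid signalling, 2,4-dichlorophenoxyacetic acid is a synthetic auxin and kinetin is a cytokinin. Cordycepin is an adenosine analogue without the hydroxyl group needed to extend an RNA chain, so once it acts, the level of a transcript is known to be set mainly by decay. Transcripts of regulators and hormone-response genes are known to turn over fast in plants, and those of metabolic enzymes and ribosomal proteins slowly. The SAUR genes (SMALL AUXIN UP RNA) encode small growth-promoting proteins induced by auxin, and their messages are a classic case of instability. In the 3′ untranslated region (UTR) some of them carry the DST element, in which the block ATAGAT is conserved.

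The SAUR family supplied 19 of the 66 transcripts found short-lived in every series, and the sites that hold this block are therefore shown first. The letters ATAGAT were searched on the transcript strand in the first 200 bases of 3′ UTR after the stop codon, in the RefSeq annotation of TAIR10.1. Of the 23 SAUR genes measured, 8 held it (34.8%), against 1012 of 13321 genes with an annotated 3′ UTR (7.6%). The reverse complement ATCTAT was present in 1 SAUR gene and in 8.26% of all genes. Each line below gives 30 bases of the transcript strand, with the block in capitals.
AT1G29430: tttgtagagtttATAGATtagacagcttaa
SAUR29: ttttaactgtagATAGATaacaattttttc
SAUR28: attttcttgtaaATAGATtgacaaattttc
SAUR27: taattactgtagATAGATgagaattttttt
SAUR26: tattccatgtgaATAGATaacatttttttc
SAUR15: aatatacaatacATAGATcgtaattgatca
AT5G18030: tgatccttgtaaATAGATgatttttttctt
SAUR24: tattcattgtaaATAGATgagccctttttc
On TAIR10.1 they lie at chr1:10302751-10302780 (minus strand), chr3:976881-976910 (minus), chr3:980065-980094 (minus), chr3:981605-981634 (plus), chr3:983547-983576 (plus), chr4:18126613-18126642 (plus), chr5:5968838-5968867 (plus) and chr5:5984152-5984181 (plus), all in 3′ UTR exons. Of the genes short-lived in all 3 series outside the family, 4 of 45 with an annotated 3′ UTR held the block (8.89%), and of those stable in all 3 series 163 of 2694 (6.05%). SAUR26 to SAUR29 are neighbours on chromosome 3, and 16 of the 23 SAUR genes start within 10 kb of another. The 8 matches are therefore not independent of each other, and the shares were not tested. A match is a string of letters and not evidence of a working element.

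Levels are given as CPM, counts scaled by library size, after the library size was multiplied by the TMM factor (edgeR's trimmed mean of M values) and by a factor that keeps 30 transcripts listed as stable references at a constant median. Changes are differences of log2(CPM + 0.5) from 0 min of the same series, and cover the 13889 genes that averaged 5 CPM or more at 0 min. The 12 libraries held 25123699 to 34166478 counts, of which 30.7 to 37.3% were of organelle genes, and 1 CPM stood for 29.8 to 37.9 counts. Leaf markers summed to 3460 to 6470 CPM, root markers to 0.58 to 2.18 CPM and seed markers to 0.154 to 0.881 CPM, so leaf markers were abundant and the others near 0. In bulk tissue, fewer cells of a type and less RNA per cell cannot be told apart.

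The 3 series did not run down together. The size of the general decline depends on the scaling, and with TMM alone the median gene changed by -0.01, -0.02 and -0.04 at 240 min in series 2, 3 and 4, and with total counts by -0.36, -0.10 and -0.35. The values that follow are relative to the reference transcripts. The median gene changed by -0.01 at 15 min, -0.36 at 60 min and -0.77 at 240 min in series 2. In series 3 it stood at 0.01, -0.04 and -0.33, so the libraries labelled 15 and 60 min showed hardly any general decline. In series 4 it stood at -0.38, -0.74 and -0.75, so most of the decline was present by 60 min. The series 4 library of 0 min also stood apart. All 23 SAUR genes had their lowest 0 min level there, at a median of 0.368 of the mean of series 2 and 3, against 0.931 over all genes. A clock score, the mean standardised level of evening clock genes less that of morning ones, was -1.36, -1.13, -1.70 and 0.10 in series 2 in order of time. It was -0.85, 2.56, 2.17 and 1.44 in series 3 and -1.05, -1.42, -0.58 and 1.64 in series 4. The part of time of day in what follows was not tested except where a value is given beside the result.

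**Figure D1:**
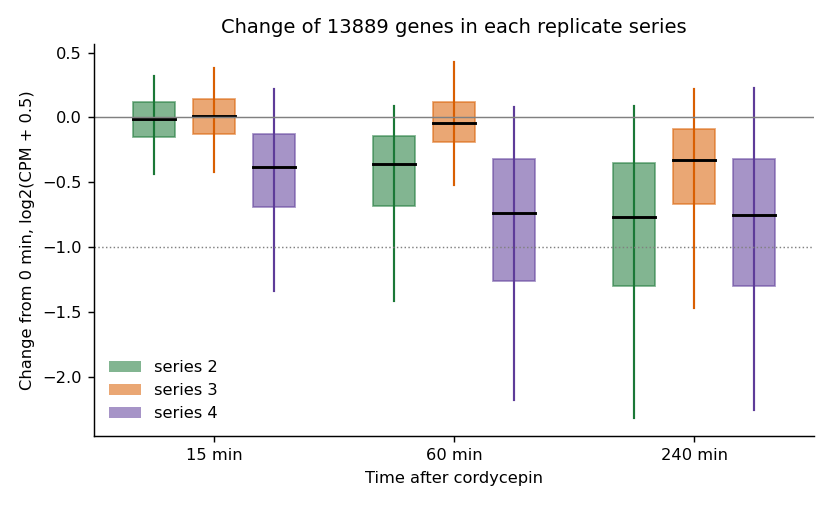
Change from 0 min, as log2(CPM + 0.5), of 13889 genes in each series at 15, 60 and 240 min. Boxes span the quartiles with the median as a black line, and whiskers run over the middle 90% of genes; series 3 stays near 0 until 240 min (median -0.33), and series 4 reaches -0.74 by 60 min.

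Tested over all 12 libraries, no gene passed the threshold in edgeR with a factor per library. edgeR's quasi-likelihood test called 0 of 21530 features at 15, 60 or 240 min (0.0%), with smallest adjusted p of 1.00, 0.483 and 0.0596. At an unadjusted p under 0.05, 8533 features were lower and 996 higher at 240 min than at 0 min, 1290 lower and 734 higher at 60 min, and 40 lower and 167 higher at 15 min. DESeq2 with the same scaling called 6781 lower (31.5%) and 768 higher (3.57%) at 240 min, 24 lower and 24 higher at 60 min (0.112% each), and 0 at 15 min. With 1 reference factor shared by the libraries of a time point, edgeR called 10956 lower (50.9%) and 527 higher (2.45%) at 240 min, and 1669 lower (7.75%) and 23 higher (0.107%) at 60 min. That scaling gives series 3 the average decline of its time point. Without series 3, edgeR with a factor per library called 6646 lower and 430 higher at 240 min, and it called 0 without series 2 and 0 without series 4. Group counts below give the calls under the shared factor, with these percentages as background, and no gene named below passed edgeR's test with a factor per library.

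Short-lived transcripts, those at -1 or lower by 60 min (a level of at most 50% of 0 min), numbered 1722 in series 2 (12.4% of 13889), 126 in series 3 (0.907%) and 5067 in series 4 (36.5%), and 66 in all 3 (0.475%). Of the list of series 2, 86.4% was in that of series 4, and 29.3% the other way. Of the list of series 3, 61.1% was in that of series 2 and 70.6% in that of series 4. Across the 13889 genes, Spearman's rho of the 60 min change was 0.69 between series 2 and 4, 0.19 between 2 and 3 and 0.13 between 3 and 4. At 240 min it was 0.89, 0.66 and 0.69 for the same pairs, so the order of genes was more alike after the longer time. Genes are not independent replicates, and no p is given.

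Of the 66 transcripts short-lived in every series, 19 were SAURs. The other 47 were of many kinds, with 1 gene of the Aux/IAA list and 1 of the other auxin-response list. Among those named here, chosen after their values were seen, were IAA29, an Aux/IAA repressor, WAG2, a kinase acting on auxin transport, ACS5, an ethylene biosynthesis enzyme, AUF1, an auxin-induced F-box protein, PRE5, a growth-promoting bHLH protein, and GAI, a DELLA repressor of gibberellin response. IAA29 changed at 60 min by -3.52, -1.21 and -2.18 in series 2, 3 and 4, and GAI by -1.49, -1.16 and -2.01. Lipid and wax enzymes were present, with KCS2, a fatty acid elongase, at -1.72, -1.45 and -2.59 and WSD1, a wax ester synthase, at -2.36, -1.5 and -3.95. The largest 60 min differences over the 12 libraries, with a level of 10 CPM or more, were those of AT5G62280 and ORP4C, an oxysterol-binding-type protein, beside 6 SAURs. AT5G62280 had 1.91, 15.3 and 1.87 CPM at 60 min and 1.90, 1.97 and 1.96 CPM at 240 min, against 43.4, 42.3 and 27.6 CPM at 0 min in series 2, 3 and 4. Its fitted log2 change was -2.58 ± 0.95 at 60 min and -4.28 ± 1.04 at 240 min (SE, n = 3 libraries per time; edgeR adjusted p 0.483 and 0.0596). The libraries of both later times lay below all those of 0 min, a state found for 22.3% of features at 60 min and 58.2% at 240 min. ORP4C had 4.43, 17.7 and 0.87 CPM at 60 min, against 39.5, 51.1 and 32.5 CPM at 0 min.

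SAUR messages were short-lived in every series. Of the 78 SAUR features counted, 53 passed the filter on counts and 23 reached 5 CPM at 0 min. Of these 23, 21 were short-lived in series 2 (91.3%), 20 in series 3 (87.0%) and 21 in series 4 (91.3%), against 12.4, 0.907 and 36.5% of all genes. Their median change at 60 min was -2.27, -1.68 and -1.77, where all genes stood at -0.36, -0.04 and -0.74, and at 240 min -3.41, -2.26 and -2.31. AT4G38860, the most abundant member, had 120, 39.2, 15.2 and 7.84 CPM at 0, 15, 60 and 240 min in series 2. It had 105, 95.6, 31.1 and 11.7 CPM in series 3 and 37.6, 9.13, 5.80 and 4.27 CPM in series 4. The level was near that of 0 min at 15 min in series 3 alone of the 3, and low in all 3 by 240 min. Over the 23 members the median change at 15 min was -1.27 in series 2, -0.22 in series 3 and -1.58 in series 4.

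The sites printed at the start are in the 3′ UTRs of members such as SAUR24. SAUR24, which holds the block, had 27.2, 7.55, 3.82 and 1.16 CPM in series 2 and 24.5, 18.8, 6.36 and 3.01 CPM in series 3 over the 4 times, and 10.2, 2.21, 1.19 and 1.06 CPM in series 4. SAUR63, which lacks it in this window, had 36.7, 11.1, 4.67 and 3.00 CPM in series 2, 33.2, 30.4, 7.26 and 4.18 CPM in series 3 and 10.3, 2.87, 2.90 and 1.73 CPM in series 4. Both were thus lower at 60 min in every series. SAUR26, AT1G29450, SAUR29 and AT5G18030, the other members named by the rule, which takes genes averaging 10 CPM or more over the 12 libraries, had fitted log2 changes of -2.34 ± 0.85, -2.27 ± 0.83, -2.26 ± 0.91 and -2.25 ± 0.79 (edgeR adjusted p 0.483 for each). With the shared factor, 10 of 53 members were called lower at 60 min, and 36 lower and 2 higher at 240 min. AT5G53590 was the exception among the 23, with 11.6, 6.58 and 16.5 CPM at 240 min against 9.98, 11.3 and 7.43 CPM at 0 min. SAUR genes lie in tandem copies (16 of the 23 start within 10 kb of another), and how reads shared by near-identical copies were counted is not given in the sources used here, so values of single members are uncertain.

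**Figure D2:**
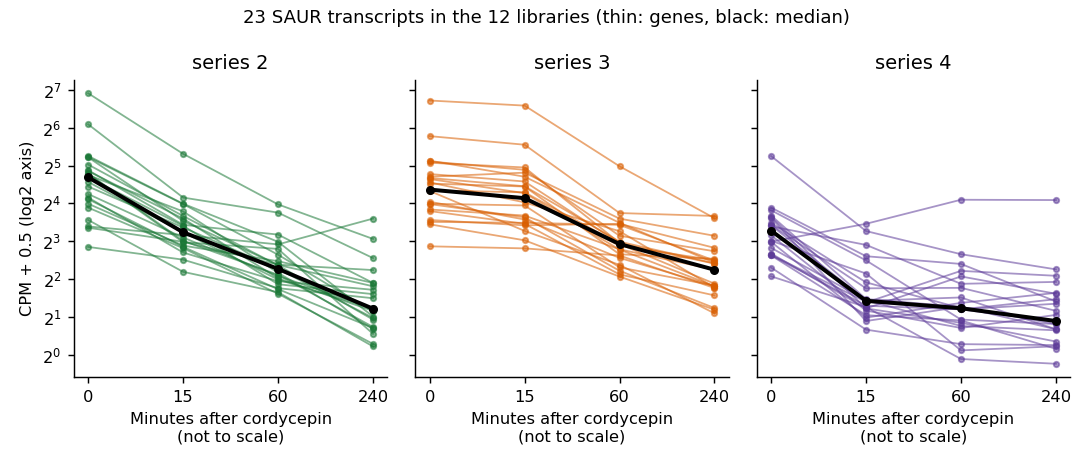
Level (CPM + 0.5, log2 axis) of 23 SAUR transcripts at 0, 15, 60 and 240 min in series 2, 3 and 4, with a thin line per gene and the median in black. Most lines descend in all 3 series, between 15 and 60 min in series 3 and already by 15 min in series 2 and 4. AT5G53590 is an exception, higher at 240 min than at 0 min in series 2 and 4. Series 4 starts lower for all 23 genes.

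Other hormone-response genes split by gene. Of 25 Aux/IAA genes, the auxin-degraded repressors, 20 reached 5 CPM: 11 were short-lived in series 2 (55%), 1 in series 3 (5.0%) and 10 in series 4 (50.0%), while 3 were stable in every series. IAA5 was the lowest, with 179, 114, 32.2 and 6.94 CPM over time in series 2, 171, 144, 95.4 and 25.2 CPM in series 3, and 105, 11.6, 6.85 and 5.04 CPM in series 4. IAA9, the highest of the list at 240 min, had 318, 388 and 392 CPM at 240 min against 361, 358 and 355 CPM at 0 min, with groups that overlap. IAA8 likewise had 43.9, 49.8 and 38.5 CPM at 240 min against 46.0, 45.4 and 40.1 CPM at 0 min. Members of this single repressor family thus spanned fitted 240 min changes from -3.62 ± 1.04 for IAA5 to 0.03 ± 0.11 for IAA9 (edgeR adjusted p 0.0598 and 0.816). Of the Aux/IAA genes tested, 17 of 24 were called lower at 240 min with the shared factor and 0 higher.

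A second list held other auxin-response genes, among them the GH3 enzymes that conjugate auxin and ACS ethylene genes. Of its 12 genes at 5 CPM, 11 were short-lived in series 2, 3 in series 3 and 7 in series 4. With the shared factor 9 of 15 tested were called lower at 240 min and 0 higher, against 50.9 and 2.45% of all features. GH3.3 had 126, 282 and 95.5 CPM at 240 min against 828, 821 and 588 CPM at 0 min. ACS4 was the lowest of the list by 240 min change (-3.55 ± 1.00, edgeR adjusted p 0.0598).

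Type-A response regulators, the fast cytokinin-induced repressors of cytokinin signalling, were low at 15 min in series 4 and partly higher again at 60 min. Of 8 members at 5 CPM, 7 were at -1 or lower at 15 min in series 4 and 0 in series 2 and 3, and 5 of the 8 then stood higher at 60 min than at 15 min by 1 or more. ARR4 had 51.4, 1.02, 8.20 and 4.86 CPM over the 4 times in series 4, but 37.9, 51.0, 19.9 and 7.21 CPM in series 2 and 40.8, 41.2, 35.9 and 21.0 CPM in series 3. ARR7 had 24.2, 0.419, 14.4 and 14.6 CPM in series 4, and RR5 had 15.0, 0.748, 11.3 and 11.9 CPM. ARR6 was counted 285, 1, 45 and 30 times in that series. Of all 13889 genes, 1531 were at -1 or lower at 15 min in series 4 (11%), and 205 stood higher by 1 or more at 60 min than at 15 min (1.48%). In series 4, 10 of 17 rapid stress-response factors, a list that also holds WRKY genes, and 8 of 27 WRKY factors were likewise higher by 1 or more at 60 min than at 15 min. A smaller share of them was at -1 or lower at 15 min, with 35.3 and 40.7%, against 87.5% of the type-A regulators. These values rest on the 1 library labelled 15 min of series 4. At 240 min 7 of the 8 lay below every 0 min library (87.5%, against 58.2% of features). With the shared factor 4 of the 8 were called lower, about the share of all features (50.9%). RR3 (AT2G41310), at 3480, 4070 and 3020 CPM at 240 min against 4540, 3790 and 4730 CPM at 0 min, is uncertain. Its counts ran close to those of AT1G05163 and AT1G15405, which were 0.881 to 0.965 of them in each library.

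**Figure D3:**
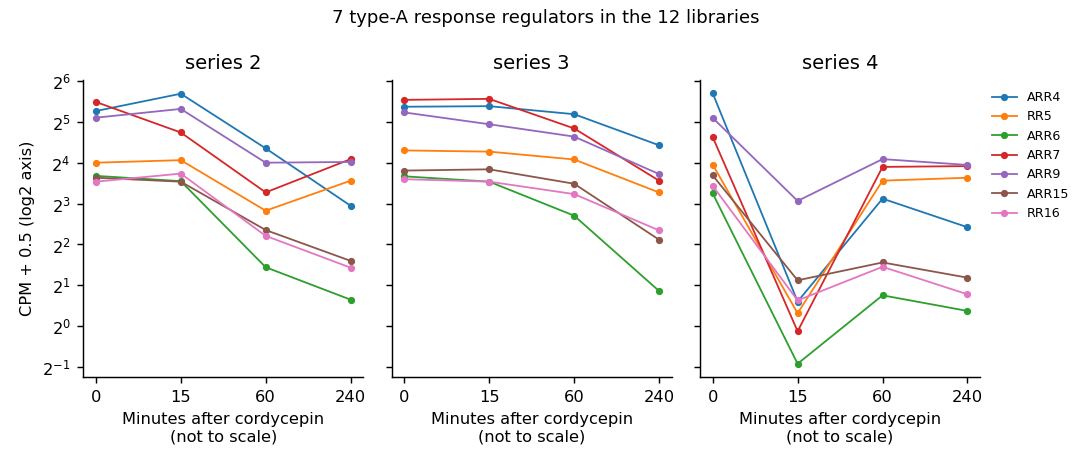
Level (CPM + 0.5, log2 axis) of 7 type-A response regulators at 0, 15, 60 and 240 min in series 2, 3 and 4, with a line per gene. In series 4 every line is lowest at 15 min and higher at 60 min, as ARR4 at 1.02 and 8.20 CPM, whereas in series 2 and 3 the 15 min library is close to 0 min for most genes.

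A different set of genes was low early in series 3. Of the 126 short-lived transcripts there, 20 were SAURs (15.9%) and 27 belonged to the nuclear photosynthesis, photosystem, clock or B-box groups (21.4%). Of these 27, 26 were already at -1 or lower at 15 min in series 3, against 1 of the 20 SAURs and 105 of all 13889 genes (0.756%). LHCB2.2, an antenna protein of photosystem II, changed at 15 min by -0.59, -4.18 and 0.20 in series 2, 3 and 4 and at 240 min by -2.02, -5.21 and -6.48. LHCB4.2, the lowest of the photosynthesis list at 240 min, had 166, 123, 77.9 and 18.5 CPM in series 2. It had 151, 23.2, 25.1 and 12.8 CPM in series 3 and 172, 173, 23 and 2.66 CPM in series 4. Both genes were low in the libraries with a clock score above 1, which are those of 15, 60 and 240 min in series 3 and of 240 min in series 4. They were also below their 0 min level at 60 min in series 4, with a score of -0.58, and at 240 min in series 2, with 0.10. CCA1, a morning clock gene that is part of the score, had 35.8, 33.5, 33.5 and 15.5 CPM in series 2, 27.1, 1.12, 5.18 and 2.28 CPM in series 3 and 34.8, 34.5, 20.5 and 2.71 CPM in series 4. TOC1, an evening gene and the highest of the clock list, had 40.9, 64.2 and 52.6 CPM at 240 min against 43.8, 47.7 and 44.0 CPM at 0 min. The part of time of day in the photosynthesis and clock values was not tested.

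B-box and CONSTANS-like zinc finger factors, regulators of light responses, gave 5 of the 66 transcripts: STH, BBX18, BBX28, COL1 and COL5. Of 18 members, 12 were short-lived in series 2 (66.7%), 6 in series 3 (33.3%) and 15 in series 4 (83.3%). STH had 34.4, 23.9, 10.5 and 3.52 CPM in series 2, 26.9, 6.98, 7.23 and 3.20 CPM in series 3 and 22.4, 10.2, 3.27 and 1.25 CPM in series 4. At 15 min it was lowest in series 3, in the library with a clock score of 2.56, and by 60 min it was low in all 3. PIL6 (also called PIF5) and the phytochrome kinase substrates PKS2 and PKS4 belonged to the 66 too, with 60 min changes from -1.25 to -2.82. Over the nuclear photosynthesis list, 48 of 50 genes were lower at 240 min in all 3 series (96.0%, against 77.1% of all genes), with medians of -0.63, -1.0 and -1.54. With TMM alone the median of series 2 was 0.16, so its direction there depends on the scaling. With the shared factor 18 of the 50 were called lower at 240 min and 0 higher, where 50.9% of all features were called lower, a larger share. RBCS2B was the highest of that list, at 309, 424 and 350 CPM at 240 min against 444, 398 and 438 CPM at 0 min.

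Histone messages were mostly short-lived in series 2 and 4 and not in series 3. Of 35 histone genes, 20 were short-lived in series 2 (57.1%), 0 in series 3 and 28 in series 4 (80.0%), and the median change at 240 min was -2.81, -0.97 and -2.52. AT5G65360, a histone H3 gene, had 104, 90.2, 33.8 and 5.26 CPM in series 2, 117, 118, 105 and 39.0 CPM in series 3, and 86.0, 35.7, 4.80 and 5.04 CPM in series 4. Within the family the genes for replacement variants differed from this, an observation made after their values were seen. The H3.3 genes AT4G40030 and AT4G40040 changed at 240 min by -0.31, -0.16 and -0.40 and by -0.41, 0.05 and -0.40 in series 2, 3 and 4. The H2A.Z genes HTA8, HTA9 and HTA11 changed by -0.52, -0.22 and -0.45, by -0.50, -0.09 and -0.62, and by -1.03, 0.09 and -0.79. The median of all genes was -0.77, -0.33 and -0.75, so HTA11 lay below it in series 2 and 4. Replication-linked copies are made in dividing cells and replacement variants outside S phase, as is known from textbook biology. With the shared factor 34 of 43 histone genes were called lower at 240 min and 0 higher. Of the H3 and H4 list, all 13 were lower in every series at 240 min and 13 were called. AT1G07660 was the highest of them, at -1.10 ± 0.52 (edgeR adjusted p 0.119). Histone copies are near-identical too, and their counts are uncertain in the same way.

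Some families of regulators and wall enzymes were also short-lived more often than all genes in both series 2 and 4. All genes stood there at 12.4 and 36.5%. The families given first are examples, and only some of the others were not above both. Short-lived members made up 71.4, 7.14 and 57.1% of 14 GRAS factors in series 2, 3 and 4, 59.3, 0.0 and 74.1% of 27 homeobox factors, and 32, 2 and 45 of 63 bHLH factors. For xyloglucan endotransglucosylases (XTH), which remodel the wall, they were 75.0, 0.0 and 87.5% of 8, and for expansins 46.2, 0.0 and 76.9% of 13. In series 3 the medians of these 5 families stood between -0.11 and -0.36 at 60 min, where all genes had -0.04, and between -0.78 and -1.15 at 240 min, where all genes had -0.33. Such an excess was not particular to these kinds of gene. The short-lived shares in series 2, 3 and 4 were 46.9, 2.04 and 65.3% for 49 cytochrome P450 genes. For 51 UDP-glycosyltransferase genes they were 37.3, 1.96 and 56.9%, and for 152 receptor-like kinase genes 33.6, 0.0 and 51.3%. AP2/ERF factors (46.7, 0.0 and 50.0% of 30), MYB factors (26.1, 4.35 and 56.5% of 69) and bZIP factors (13.3, 0.0 and 63.3% of 30) also exceeded all genes in series 2 and 4. So did F-box genes (26.7, 1.33 and 70.7% of 75), RING and U-box genes (16.7, 0.556 and 48.9% of 180) and pectin enzymes (26.7, 0.0 and 65.0% of 60). Of 26 NAC factors 30.8, 0.0 and 34.6% were short-lived in series 2, 3 and 4, of 27 WRKY factors 48.1, 3.7 and 29.6%, of 27 CCCH zinc finger proteins 11.1, 0.0 and 25.9%, and of 20 C2H2 zinc finger proteins 10.0, 0.0 and 50.0%. NAC and WRKY factors were thus above all genes in series 2 but not in series 4, and C2H2 proteins the other way. Single genes with the lowest 240 min values came from both kinds of family. BEE3, a brassinosteroid-induced bHLH factor, had 0.743, 3.08 and 0.425 CPM at 240 min against 23.2, 23.3 and 23 CPM at 0 min. NAC083 had 2.70, 3.63 and 1.14 CPM at 240 min against 51.7, 52.6 and 25.9 CPM at 0 min, and BT4 had 2.81, 6.27 and 1.22 CPM against 50.1, 53.2 and 39.1 CPM. EXPA10, an expansin, was the lowest of the cell wall list at -2.93 ± 0.80 at 240 min (edgeR adjusted p 0.0598), and 15 of the 21 genes of that list that were tested were called lower with the shared factor and 3 higher.

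The cell-cycle list behaved likewise, with 4, 0 and 9 of 13 genes short-lived and 11 of 16 called lower at 240 min with the shared factor. CYCD3;1, a cytokinin-responsive cyclin, was lowest at -1.83 ± 0.61 and CYCD2;1 highest at -0.08 ± 0.25 (edgeR adjusted p 0.0647 and 0.811). Messages for the RNA decay machinery itself were mixed. Of 19 genes 1, 0 and 10 were short-lived in series 2, 3 and 4, and 13 of 20 were called lower at 240 min with the shared factor, against 50.9% of all features. RRP4, an exosome subunit, had 4.79, 14.7 and 3.64 CPM at 240 min against 25.3, 26.8 and 21.3 CPM at 0 min. VCS, a decapping scaffold, had 97.2, 85.8 and 94.0 CPM at 240 min against 91.4, 97.7 and 91.0 CPM at 0 min, with groups that overlap. Of the 7 JAZ genes at 5 CPM, jasmonate-response repressors, 1, 0 and 1 were short-lived. With the shared factor 3 of 9 were called lower at 240 min, a smaller share than the 50.9% of all features. JAZ11 stood at -1.40 ± 0.45 and JAZ1 at -0.11 ± 0.40 at 240 min (edgeR adjusted p 0.0634 and 0.829).

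**Figure D4:**
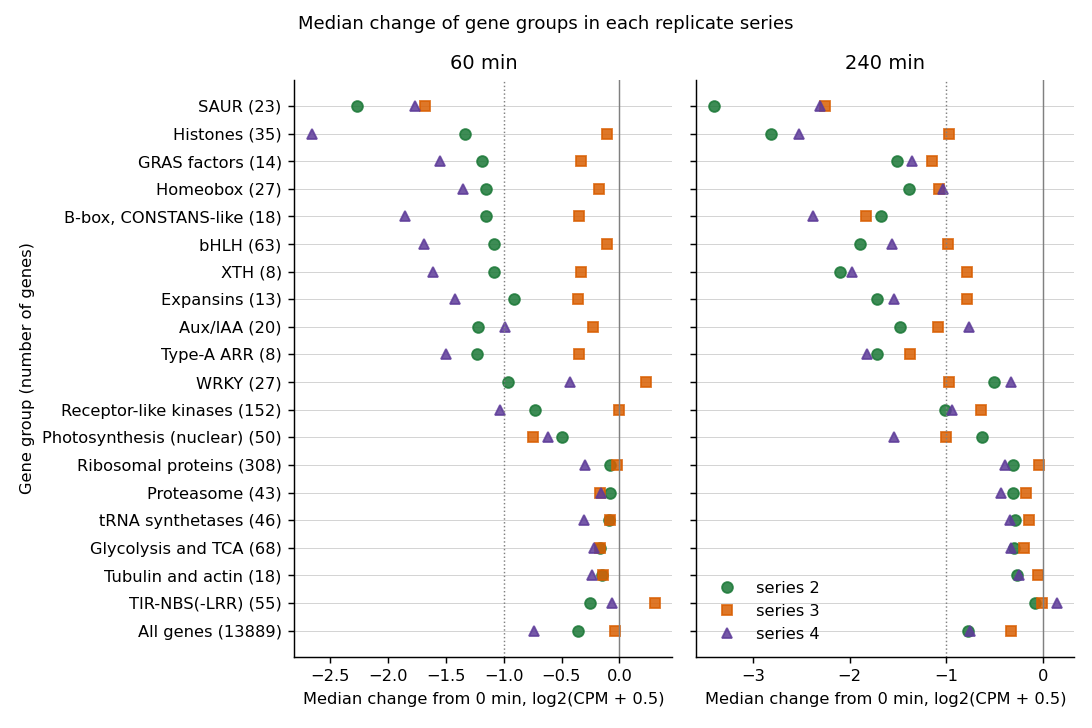
Median change from 0 min, as log2(CPM + 0.5), of 19 gene groups and of all genes at 60 and 240 min, with a marker per series and the number of genes in brackets. SAURs lie left of the -1 line in all 3 series at 60 min, histones lie there in series 2 and 4 but not in series 3, and ribosomal, proteasome, tRNA synthetase and tubulin groups stay near 0.

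Stable transcripts, within 0.5 of 0 min on the log2 scale at both 60 and 240 min, numbered 4079 in series 2 (29.4%), 8410 in series 3 (60.6%) and 3731 in series 4 (26.9%), and 2860 in all 3 (20.6%). Genes for the core machinery of protein synthesis and turnover filled a large share of their families. Of 308 ribosomal protein genes, 71.1, 93.5 and 58.1% were stable in series 2, 3 and 4. For 43 proteasome genes the shares were 69.8, 90.7 and 55.8%, for 46 aminoacyl-tRNA synthetases 69.6, 91.3 and 58.7%, and for 18 tubulin and actin genes 72.2, 94.4 and 66.7%. None of the 30 reference transcripts belongs to these 4 families. ATP synthase and vacuolar ATPase genes (76.9, 94.2 and 73.1% of 52) and genes of glycolysis and the citric acid cycle (67.6, 86.8 and 61.8% of 68) were stable as often, but 5 and 3 of the references are theirs, so their stability is partly set by the scaling. The median of ribosomal proteins at 240 min was -0.31, -0.04 and -0.39 with a factor per library and 0.49, 0.28 and 0.35 with TMM alone, so stability is stated relative to the references. The class does not use 15 min. There the ribosomal protein median was 0.26, 0.06 and -0.67 in series 2, 3 and 4, against -0.01, 0.01 and -0.38 for all genes. Proteasome genes stood at -0.05 at 15 min in series 4. These series 4 values rest on 1 library.

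The 6 genes with the smallest largest change, among those of 50 CPM or more, were TPX1, AT3G14100, NSF, AT5G15400, AT5G36230 and AT5G47690. TPX1, a thioredoxin-dependent peroxidase, had 108, 108, 104 and 105 CPM over the 4 times in series 2, 107, 105, 102 and 113 CPM in series 3 and 104, 104, 108 and 107 CPM in series 4. NSF, an ATPase of membrane fusion, had 63.7, 62.6 and 60.5 CPM at 240 min against 67.8, 64.7 and 62.1 CPM at 0 min. The fitted 240 min changes of the 6 ran from -0.07 ± 0.11 for AT5G47690 to 0.09 ± 0.11 for AT5G15400 (edgeR adjusted p 0.591 and 0.523). Of the shorter lists, all 25 cytosolic ribosomal protein genes were stable in series 2 and 3 and 22 in series 4, and 27, 30 and 19 of 31 proteasome genes. In the first list RPS5B was lowest and RPL24A highest at 240 min (-0.35 ± 0.25 and 0.02 ± 0.23, edgeR adjusted p 0.276 and 0.940), with 0 of 25 called in either direction with the shared factor. In the second, RPT3 was lowest and PBB1 highest (-0.58 ± 0.16 and 0.08 ± 0.11, edgeR adjusted p 0.0598 and 0.545), and 4 of 31 were called lower and 0 higher.

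Transcripts at 1 or higher at 240 min, a log2 step up from 0 min, were few: 100 in series 2 (0.72%), 30 in series 3 (0.216%), 129 in series 4 (0.929%) and 5 in all 3 (0.036%). Series 2 and 4 shared 76 of them, 76.0% of the list of series 2 and 58.9% of that of series 4, and each shared 8 with series 3. The 5 were AT4G14370, AT1G63750 and AT1G31540, all intracellular immune receptors of the TIR-NBS-LRR class, HSFB2A, a heat shock factor of the repressor class, and AT1G02660, an alpha/beta-hydrolase. AT4G14370 had 9.30, 13.8, 24.7 and 58.7 CPM over the 4 times in series 2, 16.1, 16.1, 32.5 and 39.9 CPM in series 3 and 13.3, 19.6, 61.6 and 82.5 CPM in series 4. Its fitted log2 change at 240 min was 2.23 ± 0.37 (edgeR adjusted p 0.0596, and 0.00536 with the shared factor). AT1G31540 had 48.9, 48.9 and 61.0 CPM at 240 min against 21.3, 24.1 and 28.8 CPM at 0 min, and AT1G63750 had 17, 16 and 23.3 CPM against 6.64, 7.63 and 8.48 CPM. HSFB2A had 28.1, 17.5 and 32.9 CPM at 240 min against 5.55, 7.63 and 7.81 CPM at 0 min. For these 4 genes no library of 240 min overlapped one of 0 min, as for 6.43% of features in that direction.

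The TIR-NBS-LRR class as a whole stood above the general decline. Of 104 such genes counted, 87 were tested and 55 reached 5 CPM at 0 min. Of the 55, 12 were at 1 or higher at 240 min in series 2 (21.8%), 5 in series 3 (9.09%) and 13 in series 4. Above 0 in all 3 series were 20 of them (36.4%, against 2.87% of all genes), and below 0 in all 3 were 17 (30.9%, against 77.1%). The class was therefore mixed, with medians of -0.08, -0.01 and 0.15, and from -0.30 to 0.88 over 5 scalings. CSA1, a member of the class, had 2.06, 3.51 and 2.1 CPM at 240 min against 10.6, 11.8 and 9.24 CPM at 0 min. With the shared factor 24 of the 87 tested, which include genes below 5 CPM at 0 min, were called higher at 240 min and 12 lower. AT1G66090, a TIR-NBS gene below 5 CPM at 0 min, had the largest higher value by the naming rule, at 26.2, 10.4 and 42.5 CPM at 240 min against 2.24, 2.69 and 3.38 CPM at 0 min. These genes occur in clusters of similar copies, and single values carry the same doubt on shared reads as the SAURs. Standing above the general decline was not particular to this class. The 18 genes of the CC-NBS-LRR class, also immune receptors, had medians of -0.42, 0.06 and 0.09 at 240 min. Of them 22.2% were above 0 in all 3 series and 22.2% below. Of 8 heat shock factors 37.5% were above 0 in all 3 and 50.0% below.

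**Figure D5:**
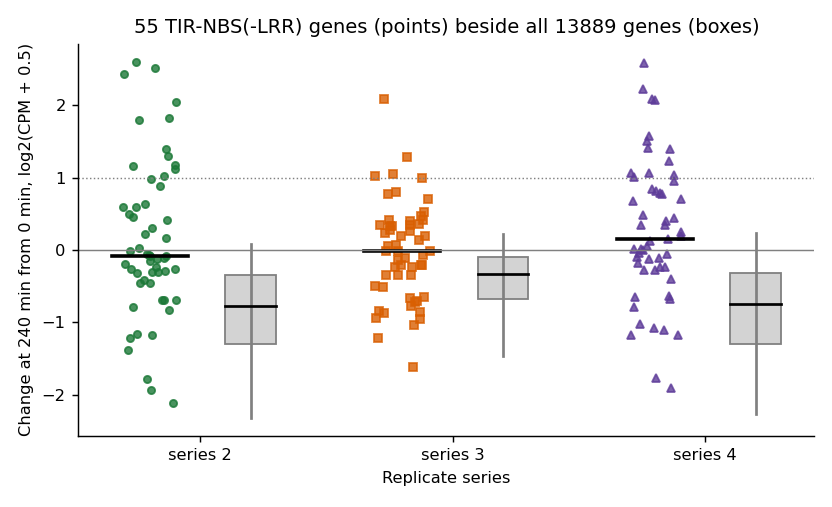
Change at 240 min from 0 min, as log2(CPM + 0.5), of 55 TIR-NBS and TIR-NBS-LRR genes (points, with the median as a black line) in series 2, 3 and 4, beside all 13889 genes (boxes for quartiles, whiskers for the middle 90%). The points spread on both sides of 0 with medians of -0.08, -0.01 and 0.15, while all genes have medians of -0.77, -0.33 and -0.75.

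Rapid stress-response transcription factors were mixed, and some members were higher late in series 2 and 4. The list held 31 genes, all tested, of which 17 reached 5 CPM at 0 min. Their median change at 15, 60 and 240 min was 0.18, -0.59 and 0.08 in series 2, 0.13, 0.48 and -0.63 in series 3, and -0.75, 0.07 and 0.49 in series 4. Above 0 at 240 min were 9 of the 17 in series 2, 5 in series 3 and 11 in series 4, against 1010, 2430 and 1439 of all 13889 genes. At 240 min 7 of the 17 were at 1 or higher in series 2, 0 in series 3 and 6 in series 4. In series 2, 6 of the 17 were short-lived at 60 min. There 16 stood higher at 240 min than at 60 min (94.1%, against 14.6% of all genes, 2022 of 13889). In series 3, 2 did (11.8%, against 16.9% of all genes), and in series 4, 14 did (82.4%, against 50.2%). In series 4, 6 of the 17 were at -1 or lower at 15 min. WRKY40 had 6.91, 11.6, 4.43 and 18.9 CPM over time in series 2, 9.03, 10.2, 16.6 and 6.80 CPM in series 3 and 8.98, 4.1, 16.3 and 19.9 CPM in series 4. WRKY18 was the lowest of the list at 240 min, with 23.5, 16.0 and 18.4 CPM against 46.9, 55.3 and 29.3 CPM at 0 min. STZ (ZAT10), a zinc finger repressor of stress responses, had 25.7, 12.7 and 18.6 CPM at 240 min against 2.01, 7.85 and 8.07 CPM at 0 min. RHL41 (ZAT12), the highest of the list, had 28.8, 8.98 and 29.7 CPM at 240 min against 3.25, 5.41 and 4.74 CPM at 0 min. Of the 31 genes 16 lay above every 0 min library at 240 min (51.6%, against 6.43%), and with the shared factor 13 were called higher and 1 lower. The 31 include genes below 5 CPM at 0 min, which could pass the filter on counts through later libraries where they were high. Of the 17 at 5 CPM, 5 were above 0 at 240 min in all 3 series (29.4%, against 2.87% of all genes). Below 0 in all 3 were 6 (35.3%, against 77.1%).

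Other genes with large higher values were AGC2-1, an oxidative-stress kinase, AT1G76600, XTH18, LEA7 and ZAT6. AGC2-1 had 26.5, 8.55 and 32.4 CPM at 240 min against 2.86, 4.60 and 2.75 CPM at 0 min. XTH18, a wall enzyme and the highest of the cell wall list, had 39.1, 11.8 and 15.9 CPM at 240 min against 3.69, 4.38 and 4.81 CPM at 0 min, where 13 of the 20 XTH genes tested were called lower with the shared factor and 2 higher. AT1G76600 had 27.0, 6.09 and 29.9 CPM at 240 min against 3.37, 3.53 and 3.00 CPM at 0 min. ZAT6 had 7.22, 28.4 and 16.5 CPM at 60 min against 4.04, 4.35 and 5.79 CPM at 0 min. LEA7, a late-embryogenesis protein of dehydration, had 9.06, 54.9, 16.7 and 91.9 CPM in series 2, 10.5, 4.01, 78.6 and 11.4 CPM in series 3 and 10.2, 50.4, 21.9 and 22.7 CPM in series 4, so its high libraries differ by series. The 4 genes of the heat shock list at 5 CPM showed no common course. MBF1C was highest at 1.23 ± 0.37 and HSP70 lowest at -0.23 ± 0.30 at 240 min (edgeR adjusted p 0.0598 and 0.541), and 2 of 12 were called higher with the shared factor and 0 lower. Of the 4 calmodulin-like and stress E3 ligase genes at 5 CPM, TCH2 was lowest at -0.37 ± 0.38 and ATL2 highest at 0.22 ± 0.31 (edgeR adjusted p 0.438 and 0.561), with 2 of 10 called higher and 0 lower.

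Gene structure, which the classes did not use, differed between them as a description. Of 13458 protein-coding genes 9.96% had a single exon, with a median of 5 exons. Of the 64 protein-coding genes short-lived in every series 50.0% had a single exon and the median was 1.5. Without the SAURs, of which 22 of 23 had 1 exon, these values were 31.1% and 2 over 45 genes. For the short-lived genes of series 2, 3 and 4 taken singly, the shares were 23.4, 39.5 and 12.8%. Their medians were 3, 2 and 5 exons, so the list of series 4, the largest, stood near all genes. Of the genes stable in every series 4.31% had a single exon, with a median of 7. Genes at 1 or higher at 240 min were intron-poor in series 2 and 4, with 33.0 and 37.2% single-exon genes, but not in series 3 (7.14% of 28). At 0 min the median level was 15.8, 23.7 and 13.6 CPM for short-lived genes of series 2, 3 and 4, 38.6, 24.9 and 35.7 CPM for stable ones, and 7.73, 5.80 and 8.98 CPM for those at 1 or higher at 240 min, where all genes had 20.6, 20.8 and 19.1 CPM.

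Whether these courses are particular to stimulus leaves was asked against the 12 mock libraries. A treatment by time term over 22307 features called 0 genes at 60 min and 0 at 240 min in edgeR (0.0%; smallest adjusted p 1.00 and 0.999, with 122 and 480 features at an unadjusted p under 0.05). No difference in the course of any gene between stimulus and mock leaves was detectable with these libraries, which does not show that they are alike.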

How the data were processed

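The authors deposited 1 table of raw, whole-number counts over 38194 features, in which each library has its own column and was matched to its sample by label. Per the labels, RNA was depleted of ribosomal RNA and stranded single-read libraries were made from it. TopHat2, Bowtie2 and TAIR10 are named in the submitters' processing notes, without roles. The counting tool, its annotation and its strand setting are not given in the sources used here, so overlapping, antisense and near-identical genes may share counts. Symbols, products, exons and 3′ UTRs came from RefSeq (assembly TAIR10.1), where 37751 features matched by locus tag.

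Counts of features passing edgeR's filter were fitted with time as a factor (edgeR 4.0.16 quasi-likelihood, R 4.3.3; Benjamini-Hochberg adjusted p under 0.05; two-sided). Library sizes were multiplied by TMM factors and by the library's median deviation over 30 reference transcripts (18 of organelle or AT2G07 origin). The log2 reference factors at 0, 15, 60 and 240 min were -0.02, -0.02, 0.35 and 0.77 in series 2, -0.03, -0.04, -0.03 and 0.29 in series 3, and 0.07, 0.45, 0.84 and 0.82 in series 4. DESeq2 1.42.0 and other scalings, filters and designs were alternatives. The edgeR fit was tested on simulated data. Replicates are not said to be separate plants, so p-values measure only the spread between these libraries, and values cover no error of amplification. Replicates of a time point differed by more than sampling alone gives, with chi-square values of 6.25 to 122 for each degree of freedom.

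The members, the 15 gene lists, the 44 annotation families and the class limits were chosen with earlier results of these data known. Genes were named by a rule: at 60 and 240 min, the 8 lowest and 6 highest by fold with a mean of 10 CPM or more, no overlap with 0 min and one direction in every series (called genes first, but none was called); the 6 of 50 CPM or more with the smallest largest change; and in each list the lowest and highest at 240 min. Organelle and reference genes were left out. Others named are members of a group chosen after their values were seen. One gene that the rule names is not reported here.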

Additional observations from a re-analysis of the deposited data

How the results depend on the processing

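The counts of calls depended on the scaling and on series 3. Where edgeR with a reference factor per library called 0 features lower or higher at 240 min, it called 1520 lower and 1342 higher with TMM alone, 51 and 14 with total counts, 82 and 13 with no filter on low counts, and 10956 and 527 with 1 factor per time point. DESeq2 called 6781 and 768. At 60 min the shared factor gave 1669 lower and 23 higher, and DESeq2 24 and 24. Leaving out a series gave 0 to 6646 lower and 0 to 430 higher at 240 min. With the replicate number as a block, 9782 were lower and 754 higher at 240 min, but the numbers are not shown to pair the libraries: 10 of 18 same-number correlations were over 0.1, and 8 of 12 libraries correlated best with their own number. Without libraries of a clock score above 0 (which left none at 240 min) 1 was higher at 15 min, and without those above 1, a limit added after seeing the data, 1 at 15 min and 1 at 240 min. The 66 transcripts short-lived in every series became 41 with TMM alone, 173 with the shared factor and 43 with nuclear references, and 77 to 1487 when a series was left out. The 2860 stable ones became 4416 with TMM alone and 4920 with total counts. The 5 at 1 or higher at 240 min became 34 with TMM alone, 18 with total counts, 2 with the shared factor, 145 with no limit on CPM at 0 min (added after seeing the data), and 8 to 76 when a series was left out. AT5G36230 changed sign at 240 min, to 0.63 with TMM alone. The causes were not tested. The SAUR medians were below 0 at 60 and 240 min in every series under all 5 scalings.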
